A study of Mus musculus with 4 samples.

Results

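This account describes 10 genes that encode the main cytokines of helper T cells, *Ifng*, *Tnf*, *Il2*, *Il4*, *Il5*, *Il10*, *Il13*, *Il17a*, *Il21* and *Csf2*, out of the 25239 gene symbols measured by RNA-Seq in CD4+ T cells isolated from mouse lung tumors. The genes were chosen by name for the function of their products, with earlier results of these data known. All 10 were listed in every library, 6 of them (*Ifng*, *Tnf*, *Il2*, *Il10*, *Il17a* and *Il21*) had enough counts to be tested, and *Il13* had a count of 0 in every library.

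Helper T cells act on other cells largely through secreted cytokines, and naive CD4+ T cells take on fates that differ in the cytokines they make and in the transcription factors that drive them. The type 1 fate, driven by T-bet (*Tbx21*), makes interferon gamma, the type 2 fate, driven by GATA3, makes interleukins 4, 5 and 13, and the Th17 fate makes interleukin 17A. Follicular helper cells make interleukin 21, regulatory T cells and several helper fates can make the inhibitory cytokine interleukin 10, and interferon gamma and tumor necrosis factor are the cytokines usually linked to control of tumors by T cells. Their transcripts are made in bursts after stimulation and are short-lived, so few of them are present in resting cells.

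The study compared mice in which CD4+ T cells lose ALK4, the receptor for the cytokine activin-A encoded by *Acvr1b*, with WT mice. There were 2 libraries labelled CD4/ALK4-KO, from CD4CreERT2+/- mice with floxed *Acvr1b* alleles (Acvr1b fl/fl), and 2 labelled WT, all on the C57BL/6 background and, by the methods, from male mice aged 8 to 10 weeks. In these CD4/ALK4-KO mice the *Cd4* promoter drives a Cre recombinase that depends on tamoxifen, given at 75 mg/kg in 5 daily doses; whether the WT mice also received tamoxifen, whether they carried Cre or floxed alleles, and whether a library holds 1 mouse or a pool is not given in the sources used here. Both groups received 500000 cells of LLC-OVA, a Lewis lung carcinoma line expressing ovalbumin, by the intravenous route, and tumors were taken at 18 to 22 days by the labels and at 16 to 20 days by the methods. The labels call the 2 libraries of a group biological replicates, and p-values measure only the spread between such libraries.

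Total counts ran from 11823908 to 13943237, at which 3 counts, the limit that a count of 0 allows, correspond to 0.219 to 0.252 CPM, counts scaled to a library of 1000000. The targeted gene *Acvr1b* had 426 and 342 counts in the WT-labelled libraries and 322 and 445 in the CD4/ALK4-KO-labelled ones. Its log2 fold change (0.16, with a standard error, SE, of 0.24 and adjusted p = 0.66) did not separate the labels, so every direction here is between libraries as labelled. The counts cover the whole gene and do not isolate the floxed part. *Cd4* had 759 and 649 counts in the WT-labelled libraries against 3654 and 4033, a log2 fold change of 2.62 (adjusted p = 2.8e-08). All 16 T cell identity genes measured were higher, with a median of 2.40, where 17.4% of all genes tested were higher and 15.4% lower. Markers of other cells were present throughout: 12 macrophage and monocyte markers summed to 6943, 8090, 7453 and 7006 CPM (the 2 WT-labelled libraries first), against 608, 549, 3105 and 3076 CPM for the 16 T cell identity genes. *Lyz2* alone gave 4278, 5687, 4758 and 4227 CPM of the macrophage sum. Sums over unlike genes do not measure the share of each cell type. In bulk RNA, fewer cells of a type and less RNA per cell cannot be told apart.

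**Figure D1:**
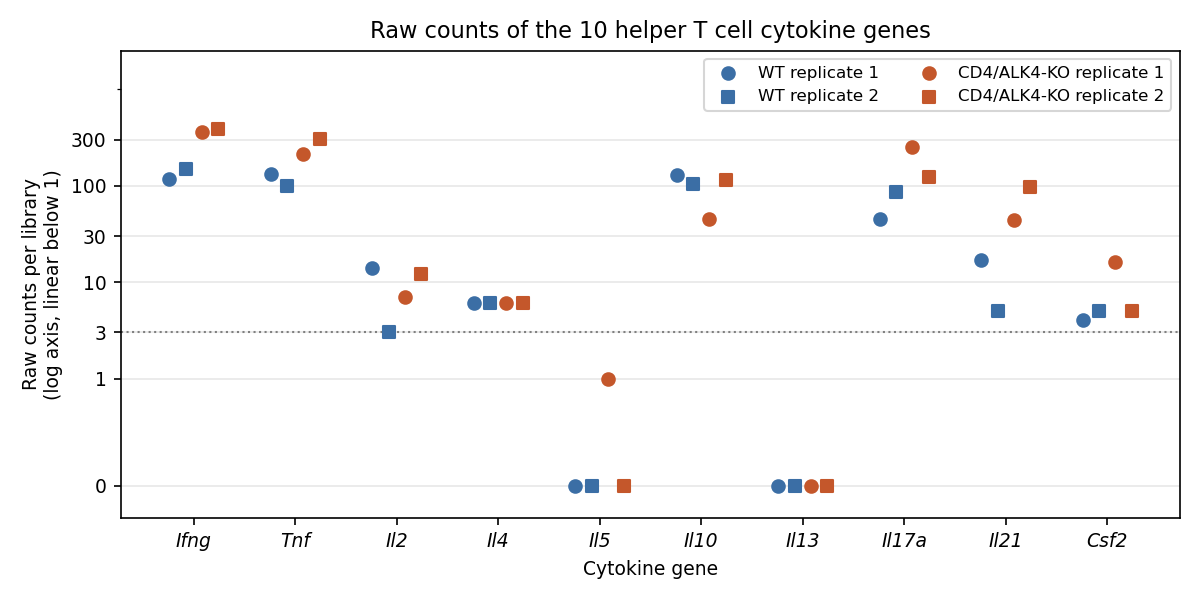
Raw counts (log axis, linear below 1) of the 10 cytokine genes in each library, with blue for WT, orange for CD4/ALK4-KO, circles for replicate 1, squares for replicate 2 and a dotted line at 3 counts. *Ifng*, *Tnf*, *Il17a* and *Il21* have more counts in both CD4/ALK4-KO-labelled libraries than in either WT-labelled one, *Il4* sits at 6 counts in all 4 and *Il13* at 0. With 2 libraries a group, random labels keep the groups of 1 gene apart with a chance of 0.333. The share of all genes that separate in this way was not computed.

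At the usual scaling to the whole library (TMM), 4 of the 6 tested cytokine genes, *Ifng*, *Tnf*, *Il17a* and *Il21*, were higher in the CD4/ALK4-KO-labelled libraries and none was lower. Over all 13919 genes tested, 17.4% were called higher and 15.4% lower by an adjusted p under 0.05 in edgeR's quasi-likelihood test. The median log2 fold change of the 6 genes was 1.48, against -0.01 for all genes tested. *Il21* exceeded the expression filter of 0.774 CPM in both CD4/ALK4-KO-labelled libraries but in only 1 WT-labelled one, so it was tested through the group where it was high. The 4 genes that were not tested are described by their counts. When the libraries were scaled instead to the 4 listed genes of the CD3 complex (*Cd3d*, *Cd3e*, *Cd3g* and *Cd247*), the signalling part of the T cell receptor, none of the 6 was called higher and 3 were called lower. That scale moves the median of all genes by -2.18 and calls 0.345% of genes higher and 92.0% lower, so relative to the median gene the cytokines keep their places, while relative to CD3 transcripts 5 of the 6 had log2 fold changes below 0.

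*Ifng*, which encodes interferon gamma, the cytokine that activates macrophages and raises antigen presentation, was the most abundant of the genes in the CD4/ALK4-KO-labelled libraries. It lies on chromosome 10 from 118441046 to 118445892 (plus strand) (GRCm38). Its counts were 118 and 149 in the WT-labelled libraries and 357 and 382 in the CD4/ALK4-KO-labelled ones. The groups did not overlap, which has a chance of 0.333 for 1 gene under random labels, and each pair was close together. In CPM this was 9.81 ± 1.70 against 30.5 ± 0.670 (SD, n = 2 each), 3.10-fold higher, with a log2 fold change of 1.63 (SE 0.27, 95% interval 1.07 to 2.19, adjusted p = 7.5e-05). Leaving out 1 library at a time gave log2 fold changes of 1.46 to 1.81. On the CD3 scale the value was -0.55 (-1.19 to 0.082, adjusted p = 0.093), with 44.5 and 60.7 *Ifng* counts per 1000 CD3 counts in the WT-labelled libraries and 33.2 and 38.5 in the others. Markers of CD8+ T cells and NK cells, which also make interferon gamma, rose in the same libraries. All 11 tested markers were higher, where 17.4% of all genes tested were, with a median log2 fold change of 1.76. The markers summed to 237, 312, 1030 and 945 CPM. Their part in the *Ifng* counts was not tested.

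*Tnf* encodes tumor necrosis factor, an inflammatory cytokine that macrophages make as well as T cells, and lies on chromosome 17 from 35199381 to 35202007 (minus strand). Counts were 131 and 98 with the WT label and 211 and 305 with the CD4/ALK4-KO label, again without overlap. The level rose from 8.40 ± 1.64 to 21.2 ± 4.93 CPM (SD, n = 2 each), a log2 fold change of 1.34 (SE 0.29, 95% interval 0.73 to 1.94, adjusted p = 0.0013). It was 1.07 to 1.59 with 1 library left out. Relative to CD3 transcripts the direction turned: 49.4 and 39.9 counts per 1000 CD3 counts stood against 19.6 and 30.7. The gene was called lower (log2 fold change -0.83, adjusted p = 0.016), as were 92.0% of all genes tested on that scale. Of the 12 macrophage and monocyte markers, 2 were called higher (*Ccr2*, a chemokine receptor, and *Csf1r*, a growth factor receptor) and none lower, with a median of -0.15. Over all genes tested 17.4% were called higher and 15.4% lower, so 2 of 12 higher is near the general share. The part of macrophages and monocytes in the *Tnf* counts was not tested.

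*Il17a* encodes the Th17 cytokine that recruits neutrophils, and lies on chromosome 1 from 20730905 to 20734496 (plus strand). It had 45 and 85 counts in the WT-labelled libraries and 254 and 124 in the CD4/ALK4-KO-labelled ones. The highest library held more than any other by a wide margin, and the gap between the groups (85 against 124) was narrow. Its level was 4.78 ± 2.12 against 15.7 ± 7.99 CPM (SD, n = 2 each), a log2 fold change of 1.71 (SE 0.38, 95% interval 0.92 to 2.50, adjusted p = 0.0017). Without CD4/ALK4-KO replicate 1 it was 1.10 (adjusted p = 0.011), and without WT replicate 1 it was 1.31 (adjusted p = 0.039). The other libraries, left out in turn, gave 2.15 and 2.24. On the CD3 scale *Il17a* was at -0.51 (adjusted p = 0.19). Gamma delta T cells and type 3 innate lymphoid cells also make this cytokine. Of 8 markers of those cells 4 were listed and tested, and 2 of them were higher (17.4% of all genes tested were). *Il23r*, which encodes the receptor chain for interleukin 23, had 22, 24, 146 and 50 counts. *Blk*, a kinase also found in B cells, had 48, 90, 271 and 438. *Il1r1*, the most abundant of the 4, had 4876, 4921, 3902 and 2572 counts (log2 fold change -0.42), and *Sox13* was at 1.27. Neither passed the test. The 4 markers summed to 362, 374, 365 and 251 CPM. Most of that was *Il1r1*, at 356, 364, 328 and 208 CPM, so the sum says little of the other markers. The part of those cells in the *Il17a* counts was not tested.

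*Il21*, the follicular helper cytokine that acts on B cells and CD8+ T cells, had the largest fold change of the 6 tested genes and low counts. It lies on chromosome 3 from 37222759 to 37232636 (minus strand). There were 17 and 5 counts with the WT label and 44 and 97 with the CD4/ALK4-KO label. No WT-labelled library reached the lower of the CD4/ALK4-KO-labelled ones. The log2 fold change was 2.83 (SE 0.58, 95% interval 1.64 to 4.02, adjusted p = 0.00065), 7.10-fold, from 0.805 ± 0.616 to 5.78 ± 2.94 CPM (SD, n = 2 each). Leaving out WT replicate 1 gave 3.93, leaving out CD4/ALK4-KO replicate 2 gave 2.18, and leaving out WT replicate 2 gave 2.20. *Il21* was the only one of the 6 above 0 on the CD3 scale, at 0.69 (95% interval -0.49 to 1.87, adjusted p = 0.26), where it was not called.

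**Figure D2:**
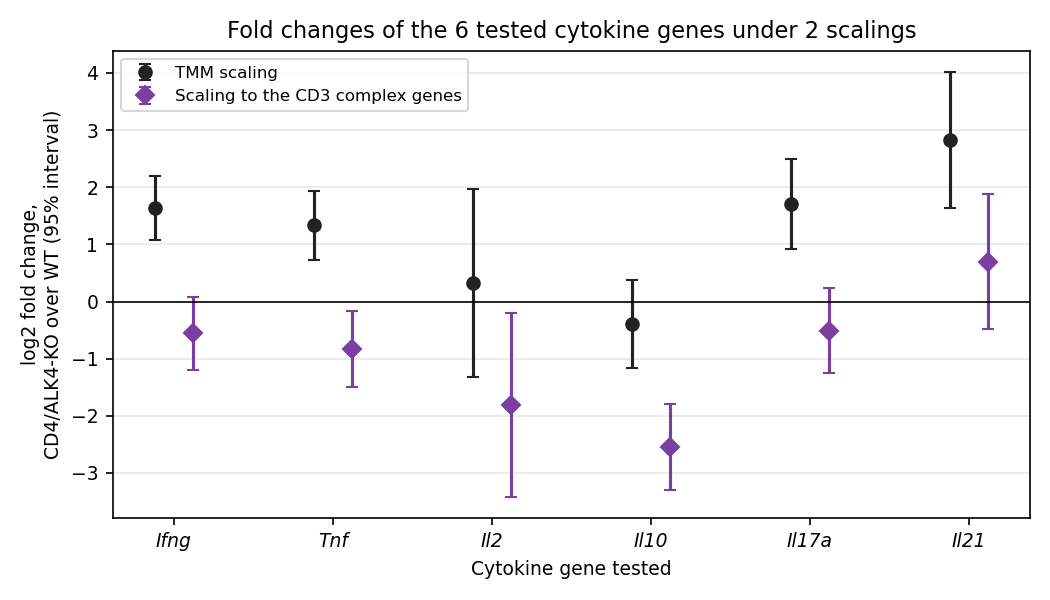
Log2 fold change of CD4/ALK4-KO-labelled over WT-labelled libraries for the 6 tested cytokine genes, with 95% intervals, under TMM scaling (black circles) and under scaling to the CD3 complex genes (purple diamonds). With TMM scaling 4 intervals lie wholly above 0, and on the CD3 scale those of *Tnf*, *Il2* and *Il10* lie wholly below 0.

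Sequences upstream of the 4 genes that rose under TMM are shown with that of *Il2*, a T cell cytokine gene on the same chromosome as *Il21* that did not pass the test, so that the promoters can be read side by side. RefSeq promoter windows (GRCm38.p6) were given for 9 of the 10 genes, and not for *Il10*. Each is the 250 bases before the transcription start, 5′ to 3′ along the gene: *Ifng* at chr10:118440796-118441045 (plus strand), *Tnf* at chr17:35202008-35202257 (minus), *Il17a* at chr1:20730655-20730904 (plus), *Il21* at chr3:37232637-37232886 (minus) and *Il2* at chr3:37125955-37126204 (minus). Capitals mark GGAAA, the core bound by NFAT, TGANTCA, the site of AP-1, and the TATA box TATAAA, each searched on both strands, so that GGAAA on the other strand reads TTTCC.
Ifng: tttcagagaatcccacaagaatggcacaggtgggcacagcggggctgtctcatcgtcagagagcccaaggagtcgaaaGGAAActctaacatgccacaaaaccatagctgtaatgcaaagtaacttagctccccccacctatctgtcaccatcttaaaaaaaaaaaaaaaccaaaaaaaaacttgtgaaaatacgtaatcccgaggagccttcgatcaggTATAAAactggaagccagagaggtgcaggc
Tnf: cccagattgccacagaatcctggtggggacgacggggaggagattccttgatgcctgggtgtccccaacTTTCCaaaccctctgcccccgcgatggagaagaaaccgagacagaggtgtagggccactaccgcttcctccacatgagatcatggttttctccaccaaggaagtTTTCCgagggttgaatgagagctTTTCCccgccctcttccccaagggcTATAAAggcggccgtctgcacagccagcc
Il17a: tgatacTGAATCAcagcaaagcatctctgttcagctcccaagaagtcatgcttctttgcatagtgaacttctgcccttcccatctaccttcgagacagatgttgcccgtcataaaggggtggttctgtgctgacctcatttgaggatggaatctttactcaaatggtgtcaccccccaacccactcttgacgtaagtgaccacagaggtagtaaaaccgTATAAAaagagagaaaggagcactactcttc
Il21: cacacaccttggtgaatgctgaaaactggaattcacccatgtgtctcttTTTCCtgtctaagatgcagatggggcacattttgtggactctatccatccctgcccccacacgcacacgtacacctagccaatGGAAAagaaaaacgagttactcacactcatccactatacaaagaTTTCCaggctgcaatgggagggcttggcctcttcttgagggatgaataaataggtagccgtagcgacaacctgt
Il2: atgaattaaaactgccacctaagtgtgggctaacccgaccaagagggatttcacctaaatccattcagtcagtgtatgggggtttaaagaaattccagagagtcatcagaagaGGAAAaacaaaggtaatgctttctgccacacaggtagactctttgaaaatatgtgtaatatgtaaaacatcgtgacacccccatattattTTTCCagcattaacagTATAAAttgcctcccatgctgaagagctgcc
GGAAA occurs 1 time before *Ifng*, 3 times before *Tnf*, 3 times before *Il21*, 2 times before *Il2* and 0 times before *Il17a*. TGANTCA occurs in the *Il17a* window alone of these 5, and TATAAA in all but that of *Il21*. Of 32851 mouse promoter windows of the same length, 55.6% hold GGAAA, 6.75% hold TGANTCA and 12.4% hold TATAAA. A match is a description of the letters, not a bound site.

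*Il10*, which encodes the inhibitory cytokine that restrains macrophages and T cells, did not rise with the 4 genes above. It is on chromosome 1 from 131019845 to 131024974 (plus strand). It had 129 and 105 counts in the WT-labelled libraries, and 45 and 114 in the CD4/ALK4-KO-labelled ones. Only CD4/ALK4-KO replicate 1 stood apart, and its partner lay between the WT-labelled values. The log2 fold change was -0.40 (SE 0.37, 95% interval -1.17 to 0.38, adjusted p = 0.45), which is less than the spread between the replicates. This value rests on single libraries: without CD4/ALK4-KO replicate 1 it was 0.14 (adjusted p = 0.79), and without CD4/ALK4-KO replicate 2 it was -1.19 and called lower (adjusted p = 0.012). On the CD3 scale *Il10* was called lower at -2.55 (adjusted p = 1.4e-10), with 48.7, 42.8, 4.18 and 11.5 counts per 1000 CD3 counts. That scale puts the median of all genes tested at -2.19 and calls 92.0% of them lower, so the call does not set *Il10* apart from most genes.

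*Il2*, the growth factor of T cells, was near the limit of detection. The gene lies on chromosome 3 from 37120523 to 37125959 (minus strand), and its counts were 14 and 3 with the WT label and 7 and 12 with the CD4/ALK4-KO label. The ranges overlap, and the log2 fold change of 0.32 (SE 0.79, 95% interval -1.32 to 1.96, adjusted p = 0.79) leaves room for a change in either direction. Leaving out WT replicate 2 gave -0.39 and leaving out WT replicate 1 gave 1.76. On the CD3 scale it was called lower at -1.81 (adjusted p = 0.029), as were 92.0% of all genes tested. Its 3′ end overlaps *Adad1*, which had counts of 0, 0, 0 and 1, and reads in the shared stretch are uncertain.

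The type 2 cytokine genes sit together on chromosome 11 and were hardly detected. *Il4*, the cytokine that drives class switching to IgE (53602982 to 53618669, minus strand), had 6 counts in each of the 4 libraries. Fitted without the filter on low counts, its log2 fold change was 0.16 with an SE of 1.08 (adjusted p = 0.94), so a difference was not detectable at this depth. *Il5*, the eosinophil growth factor (53720794 to 53725106, plus strand), had 1 count in CD4/ALK4-KO replicate 1 and 0 elsewhere. *Il13*, which acts on airway epithelium (53631324 to 53634702, minus strand), had 0 in every library, which allows up to 0.219 to 0.252 CPM by counting error alone. *Csf2*, further along the chromosome (54247271 to 54249667, minus strand), encodes the granulocyte and macrophage growth factor GM-CSF. It had 4, 5, 16 and 5 counts, so that CD4/ALK4-KO replicate 1 alone was high and the other CD4/ALK4-KO-labelled library equalled the higher WT-labelled one. Without the filter its log2 fold change was 1.37 (SE 1.01, 95% interval -0.61 to 3.35, adjusted p = 0.37).

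Levels per kb of exon allow the genes to be compared with one another. In the WT-labelled libraries *Ifng* (7.58 ± 1.31 CPM per kb), *Il10* (6.56 ± 0.891), *Tnf* (5.13 ± 0.999) and *Il17a* (4.09 ± 1.81) stood first (SD, n = 2 each). The ranges of *Ifng* and *Il10* overlapped, as did those of *Tnf* and *Il17a*. In the CD4/ALK4-KO-labelled libraries the order was *Ifng* (23.5 ± 0.518 CPM per kb), *Il17a* (13.4 ± 6.82), *Tnf* (12.9 ± 3.01) and *Il10* (4.97 ± 2.94). There *Ifng* lay above the rest, *Il17a* and *Tnf* overlapped, and *Il10* lay below both. *Il21* (0.153 and 1.10 CPM per kb in the WT-labelled and CD4/ALK4-KO-labelled means), *Csf2* (0.413 and 1.09), *Il2* (0.543 and 0.682) and *Il4* (0.359 and 0.403) were the low genes. The exon length of *Il21*, 5259 bp over all annotated transcripts, may exceed that of the transcript in these cells and lower its level.

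The sum of the 10 genes was 464 and 456 counts in the WT-labelled libraries and 941 and 1045 in the CD4/ALK4-KO-labelled ones, or 33.9, 33.7, 79.1 and 84.6 CPM. Per 1000 CD3 counts the order was the other way round, at 175 and 186 against 87.4 and 105. Within the sum, the share of *Il10* was 27.8% (exact 95% interval 23.8% to 32.1%) and 23.0% (19.2% to 27.2%) with the WT label, and 4.78% (3.51% to 6.35%) and 10.9% (9.08% to 13.0%) with the CD4/ALK4-KO label. *Ifng* took 25.4% and 32.7% of the sum in the WT-labelled libraries and 37.9% and 36.6% in the others. The share of *Tnf* (28.2% and 21.5%, then 22.4% and 29.2%) and that of *Il17a* (9.70% and 18.6%, then 27.0% and 11.9%) overlapped between the groups. These intervals, and those of the ratios that follow, cover counting error only.

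A ratio of counts of a pair of genes within 1 library depends on no scaling, and the ratios to *Il10*, taken up after the values were seen, are given as a description. *Ifng* and *Il10* were about level in the WT-labelled libraries, at ratios of 0.915 (exact 95% interval 0.707 to 1.18) and 1.42 (1.10 to 1.84). In the CD4/ALK4-KO-labelled ones there were 7.93 (5.81 to 11.1) and 3.35 (2.71 to 4.17) *Ifng* counts for each *Il10* count. *Tnf* to *Il10* was 1.02 and 0.933 with the WT label and 4.69 and 2.68 with the CD4/ALK4-KO label. *Il21* to *Il10* was 0.132 and 0.0476 against 0.978 and 0.851. *Il17a* to *Il10* was 0.349 and 0.810 against 5.64 and 1.09, and here the interval of WT replicate 2 (0.601 to 1.09) met that of CD4/ALK4-KO replicate 2 (0.837 to 1.42). The values of these 4 ratios did not overlap between the labels, which was so for 6 of the 15 pairs among the 6 tested genes. With 2 libraries a group, the smallest two-sided p an exact permutation test can give is 0.333. That is also the chance that 1 ratio keeps the groups apart under random labels, and 6 of 15 pairs is near it. The 4 ratios share *Il10*, with its 45 counts in CD4/ALK4-KO replicate 1, and are not separate observations. The geometric mean of the ratio differed 4.53-fold for *Ifng* and 3.64-fold for *Tnf*. A ratio shows unequal change and not which of the genes moved. Among the genes that rose under TMM, the ratio of *Ifng* to *Tnf* (0.901, 1.52, 1.69 and 1.25) overlapped between the labels, and so did that of *Ifng* to *Il17a* (2.62, 1.75, 1.41 and 3.08). *Tnf* to *Il21* did not overlap, at 7.71 and 19.6 with the WT label and 4.80 and 3.14 with the CD4/ALK4-KO label.

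**Figure D3:**
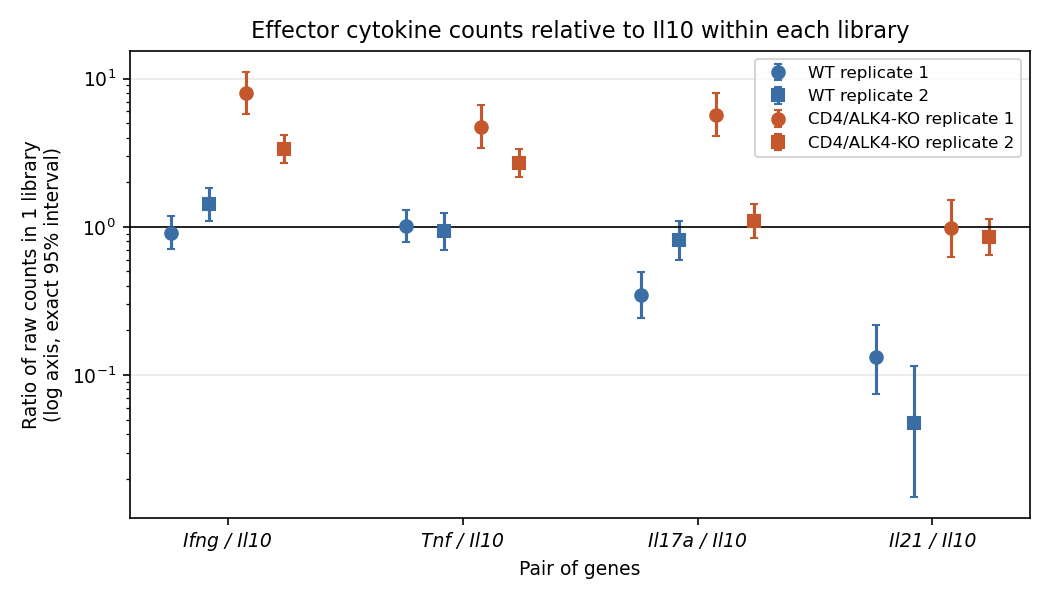
Ratio of raw counts of *Ifng*, *Tnf*, *Il17a* and *Il21* to those of *Il10* in each library (log axis), with exact 95% intervals that cover counting error only, blue for WT and orange for CD4/ALK4-KO. The ratios run from 0.0476 to 1.42 in the WT-labelled libraries and from 0.851 to 7.93 in the CD4/ALK4-KO-labelled ones, and for each gene both CD4/ALK4-KO-labelled values lie above both WT-labelled values.

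Most transcription factors linked to helper fates rose under TMM: 16 of 19 tested were higher and none lower (background 17.4% and 15.4%), with a median log2 fold change of 1.46. On the CD3 scale 1 was higher and 12 were lower (background 0.345% and 92.0%). *Tbx21*, the type 1 factor that acts on *Ifng*, had 37, 24, 71 and 122 counts (log2 fold change 1.82, adjusted p = 0.0019). *Stat4*, which carries the signal of interleukin 12, was higher at 1.59, *Stat3*, which carries those of interleukins 6, 10 and 21, at 0.93, and *Ikzf2*, a factor of regulatory T cells, at 2.31. *Gata3*, the type 2 factor, had 39 and 31 counts against 136 and 195 (log2 fold change 2.40, adjusted p = 1.9e-05), in libraries where *Il4*, *Il5* and *Il13* were hardly detected. *Stat6*, which carries the interleukin 4 signal, was at 0.34 and did not pass the test.

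*Il17a* (254 and 124), *Il23r* (146 and 50) and *Il17f*, the sister gene of *Il17a* (23 and 3, after 3 and 2 with the WT label, not tested), all had more counts in CD4/ALK4-KO replicate 1 than in replicate 2. *Il17f* and *Irf4* were chosen after their values were seen. Replicate 2, in contrast, had more of *Il21* (44 and 97), *Irf4* (412 and 692) and *Foxp3* (201 and 347). *Irf4*, a factor induced by T cell receptor signals, rose most in the list (65 and 79 counts with the WT label, log2 fold change 3.10, adjusted p = 8.3e-08). It was also the gene of the list called higher on the CD3 scale, at 0.93. *Bcl6*, the follicular helper factor, changed less, with 147, 183, 224 and 297 counts (log2 fold change 0.82, adjusted p = 0.026). *Foxp3*, which defines regulatory T cells, was at 2.69. *Maf*, a factor that acts on *Il10*, had 617, 616, 655 and 649 counts and, like *Il10*, did not pass the test under TMM (log2 fold change 0.25, adjusted p = 0.40).

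**Figure D4:**
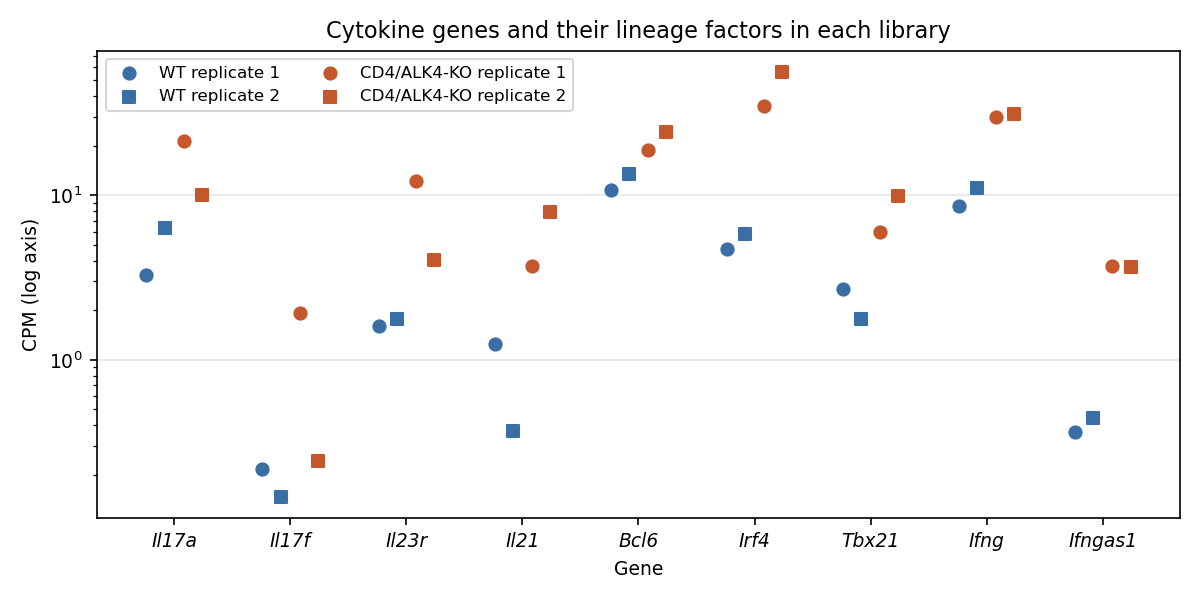
CPM (log axis) of 9 genes, namely *Il17a*, *Ifng* and *Il21* with their lineage factors and related genes, in each library, with blue for WT, orange for CD4/ALK4-KO, circles for replicate 1 and squares for replicate 2. In the CD4/ALK4-KO-labelled libraries *Il17a*, *Il17f* and *Il23r* are higher in replicate 1, *Il21*, *Bcl6*, *Irf4* and *Tbx21* are higher in replicate 2, and *Ifng* and *Ifngas1* are nearly equal in both.

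Of 17 receptor chains for the 10 cytokines, all tested, 9 were higher and 1 lower under TMM (17.4% and 15.4% of all genes tested). On the CD3 scale 1 was higher and 12 lower, where 0.345% and 92.0% of all genes tested were. *Il2ra*, the high-affinity chain for interleukin 2 that marks activated and regulatory T cells, had 113 and 101 counts against 728 and 773. Its log2 fold change was 2.98 (SE 0.25, adjusted p = 2.5e-08), and it was the chain called higher on the CD3 scale (0.79, adjusted p = 0.013). *Il2rg*, the chain shared by the receptors for interleukins 2, 4 and 21, was at 1.87, *Il21r* at 1.82, *Il10ra* at 1.61 and *Ifngr1* at 1.29, and all 4 passed the test. *Il2rb*, the signalling chain for interleukin 2, was higher at 2.24. *Ifngr2*, the partner of *Ifngr1*, was at 0.11 and *Il10rb*, the partner of *Il10ra*, at 0.45, and neither passed. Of the receptors for tumor necrosis factor, *Tnfrsf1b*, found mainly on leukocytes, was higher at 1.46, and *Tnfrsf1a*, found on most cells, was at -0.02 and did not pass. *Il17ra* was higher at 1.19, while its partner *Il17rc*, which is expressed mainly outside the blood lineage, was the chain called lower (284, 276, 120 and 124 counts, log2 fold change -1.03, adjusted p = 0.0059). Beside this, markers of lung epithelial, endothelial and stromal cells summed to 3736, 3635, 2184 and 2078 CPM. Most of that was *Col3a1*, at 2788, 2668, 1423 and 1444 CPM. Of the 9 markers 5 were lower and 2 higher. Their part in the *Il17rc* counts was not tested. *Il4ra* (0.35) and *Il13ra1* (-0.02), chains for interleukins 4 and 13, did not pass, and neither did *Il5ra*, a chain for interleukin 5, at 1.13. *Csf2rb*, the chain shared by the receptors for interleukin 5 and GM-CSF, was higher at 0.91 (adjusted p = 0.0058).

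Among 22 other cytokine genes of helper T cells, 17 were tested, and 12 were higher and 1 lower under TMM (background 17.4% and 15.4%). None was higher and 8 were lower on the CD3 scale (background 0.345% and 92.0%). Of the lymphotoxin genes, *Ltb* had 742, 632, 2161 and 2353 counts (log2 fold change 1.88) and the less abundant *Lta* 21, 10, 106 and 128 (3.07, adjusted p = 1.3e-05). *Il16*, which encodes a ligand of CD4, had 475, 464, 1928 and 2401 counts and was higher at 2.37. *Cd40lg*, the contact signal that helper cells give to B cells, was at 2.42. The chemokine *Ccl5* was higher at 0.98, whereas *Ccl3* and *Ccl4*, made by macrophages as well as T cells, were at -0.18 and 0.07 and did not pass. *Areg*, a growth factor for epithelium, was the gene called lower, with 298 and 365 counts against 67 and 168 (log2 fold change -1.34, adjusted p = 0.0040). In the same libraries *Il1rl1*, the receptor for interleukin 33 found on type 2 innate lymphoid and mast cells, and *Gata2*, a mast cell and basophil factor, were lower (-1.65 and -1.66), in a list of 10 such markers with a median of 0.21. The 2 others called in that list were higher, *Il17rb*, a receptor chain found on type 2 innate lymphoid cells (6, 5, 44 and 39 counts, log2 fold change 3.05), and *Kit*, the stem cell factor receptor of mast cells (1.68). Their part in the *Areg* counts was not tested. *Il9* and *Il22* had 0 counts in every library, and *Il3* had 2 counts in WT replicate 1 alone. *Lta*, *Cd40lg*, *Ccl4*, *Kit*, *Il17rb*, *Il3*, *Il9* and *Il22* were chosen after their values were seen.

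Cytokine transcripts are short-lived because proteins bind elements in their RNA and lead to its decay. Of 12 genes of such RNA-binding proteins and related regulators, 6 were higher under TMM and none was lower (background 17.4% and 15.4%). The median was 0.64, beside 1.48 for the cytokine genes. On the CD3 scale 10 were lower and none higher (background 92.0% and 0.345%). The largest value was that of *Tnfaip3*, 1 of the related regulators, which encodes the NF-kappa-B inhibitor A20. It had 2564, 2415, 6712 and 8547 counts (log2 fold change 1.78). *Zfp36l2*, whose product binds AU-rich elements, was higher at 0.98. *Zfp36*, which encodes tristetraprolin, the protein that destabilises the *Tnf* transcript, was at 0.61 and did not pass (adjusted p = 0.060).

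Within 100 kb of the 10 genes lay 41 other genes listed in the files, of which 26 were tested, 6 were higher and 2 were lower under TMM, where 17.4% and 15.4% of all genes tested were. The long noncoding RNA *Ifngas1*, whose gene body at its nearest point lies 56.1 kb from that of *Ifng*, was the tested neighbour there and had 5 and 6 counts against 44 and 45 (log2 fold change 3.15, SE 0.62, adjusted p = 0.00047). Around *Tnf*, 3 of 15 tested genes were higher: *Lta* at 1.16 kb, *Ltb* at 3.06 kb and *Ly6g5b*, the last chosen after its values were seen. The other 12 were not called, among them the class I gene *H2-D1* (0.10), *Ddx39b* (0.24) and *Bag6* (-0.50). On chromosome 3, *4932438A13Rik* near *Il2* was higher at 1.31. In the type 2 cluster *Irf1*, an interferon-induced factor 44.9 kb from *Il5*, was higher at 1.31, *Kif3a*, 1.01 kb from *Il4*, was lower at -0.72, and the DNA repair gene *Rad50* was at 0.10 and did not pass. *Acsl6* near *Csf2* was lower at -1.33, *Mapkapk2* near *Il10* was at -0.26 and *Mcm3* near *Il17a* at -0.15, and the last pair did not pass. Whether counting used strand is not given in the sources used here, so reads of overlapping genes on opposite strands may be mixed.

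**Figure D5:**
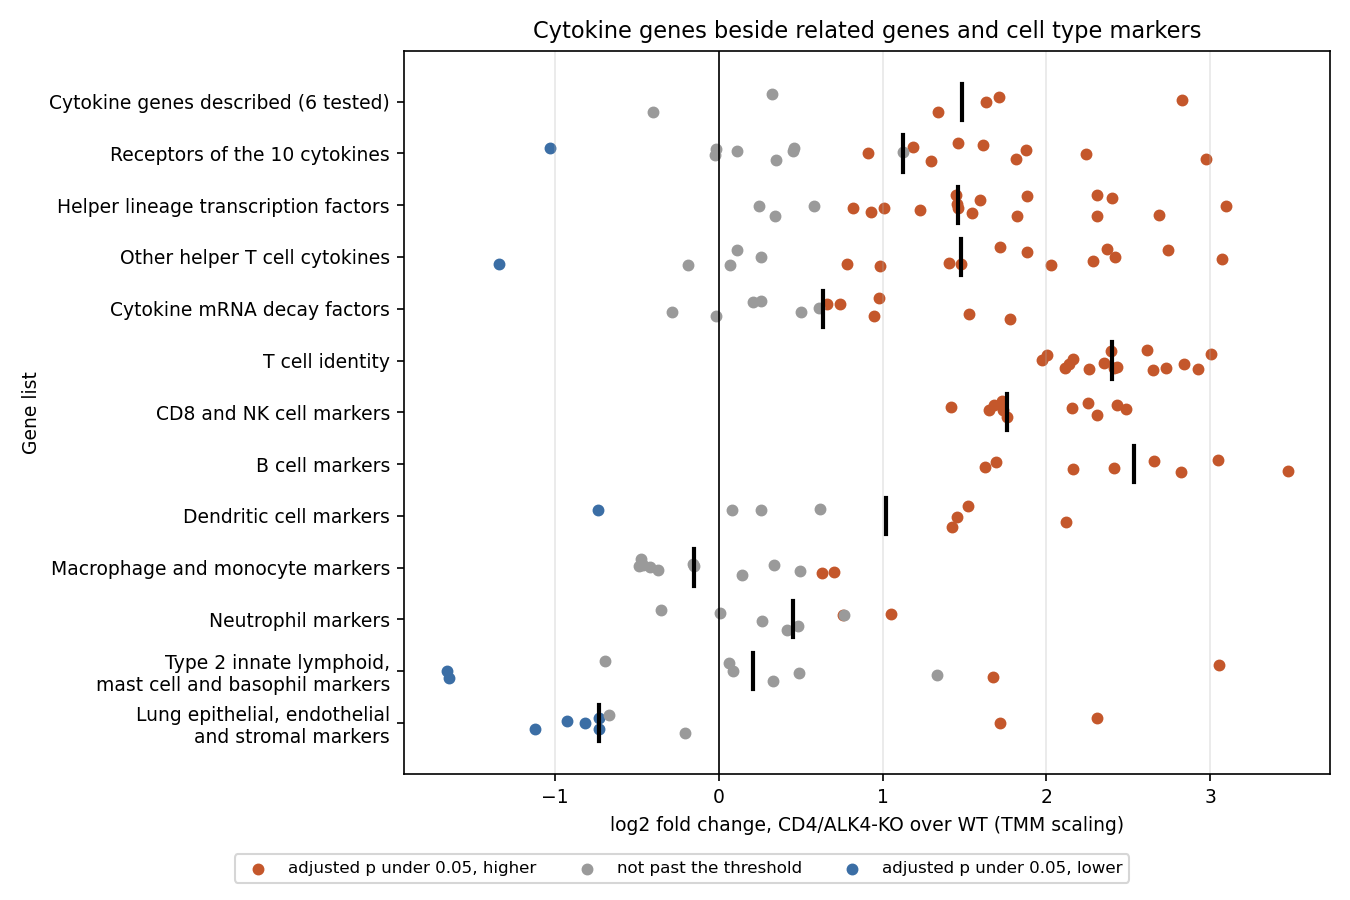
Log2 fold changes (TMM scaling) of the tested genes of 13 lists, 1 point per gene, orange for higher and blue for lower at an adjusted p under 0.05, grey for not past the threshold, with a black bar at the median of each list. The medians of the cytokine genes (1.48), transcription factors (1.46) and other cytokines (1.48) lie between those of macrophage markers (-0.15) and T cell identity genes (2.40), and on the CD3 scale all 3 of these medians fall below 0.

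T cells were not the only lymphocytes with more transcripts under TMM in the CD4/ALK4-KO-labelled libraries. All 8 B cell markers were higher, with a median log2 fold change of 2.53 and sums of 72.2, 57.4, 219 and 418 CPM, and 4 of 8 dendritic cell markers were higher and 1 lower. Of 8 neutrophil markers 2 were higher and none lower, beside 17.4% higher and 15.4% lower over all genes tested. The 4 cytokine genes that rose had log2 fold changes from 1.34 to 2.83, and the 16 T cell identity genes had values of 1.97 and above. What part of the cytokine counts came from each of these cells was not tested.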

How the data were processed

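RNA-Seq was measured in 4 libraries of CD4+ T cells isolated from lung tumors, grouped by their labels as 2 WT and 2 CD4/ALK4-KO. The authors deposited raw counts per gene symbol, made from 75 bp single-end reads with HISAT2 on mm10 and HTSeq, the submitters' processing notes also naming FastQC and DESeq2. Tool versions, annotation and strand option are not given in the sources used here. Total counts ran from 11823908 to 13943237, so a count of 0 allows at most 0.252 CPM.

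Of 25239 genes, 13919 passed filterByExpr of edgeR 4.0.16 (R 4.3.3). Counts were scaled by TMM, and a robust quasi-likelihood fit of genotype was adjusted by Benjamini-Hochberg over all genes tested. The common dispersion was 0.0357. CPM use TMM-adjusted library sizes. The script was tested on simulated data. Alternatives were DESeq2 size factors and its Wald test (DESeq2 1.42.0), scaling to the CD3 complex genes, other filters, a replicate block and each library left out in turn. Replicates differed by more than sampling noise (chi-square per degree of freedom 13.3 for WT and 24.0 for CD4/ALK4-KO).

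The cytokine genes and all lists were chosen with earlier results of these data known. Named genes were all 10 cytokines, from each list up to 4 with the highest mean CPM, those called against the list's main direction, receptor chains and lineage factors of the cytokines, and up to 4 tested neighbours per locus, with exceptions named in the text. Some transcription factor genes were not used here. Positions are from GENCODE M21 (GRCm38), which matched 24366 symbols, and promoters from RefSeq.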

Additional observations from a re-analysis of the deposited data

How the results depend on the processing

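Scaling to the CD3 complex genes changed most. It turned the log2 fold changes of *Ifng* to -0.55, *Il17a* to -0.51, *Tnf* to -0.83 and *Il2* to -1.81 and the median of the 6 tested genes to -0.69, with 0 of them called higher and 3 lower, and 48 genes called higher and 12803 lower over all genes. Leaving out each library in turn gave -1.19 to 0.14 for *Il10* and -0.39 to 1.76 for *Il2*, 0 to 1 cytokine genes called lower, and 1103 to 2923 genes called higher and 754 to 2618 lower overall. Leaving a library out leaves 1 library in that group, assumed to vary like the others. With the replicate number as a block, 4 cytokine genes stayed called higher, but over all genes 1768 were called higher and 1444 lower, against 2422 and 2140 without it. Same-numbered libraries did not deviate together (correlation -0.214), so the numbers were not taken as pairs. With the pairing crossed, an alternative chosen after seeing the data, 3118 genes were called higher and 3037 lower. With at least 10 counts in every library *Il21* and *Il2* were not tested, and 3 of the 4 remaining cytokine genes were called higher. DESeq2, with its size factors or its Wald test, and the fit without a filter each called 4 cytokine genes higher and 0 lower. Over the alternatives the adjusted p ran from 2.3e-08 to 0.093 for *Ifng*, 6.6e-07 to 0.048 for *Tnf*, 3.6e-10 to 0.19 for *Il17a*, 1.8e-09 to 0.26 for *Il21*, 1.4e-10 to 0.81 for *Il10* and 0.029 to 0.95 for *Il2*. These ranges pool both directions, and on the CD3 scale *Tnf* was called lower. The smallest values of *Il10* and *Il2* came from that scale, where 92.0% of all genes tested were lower. Depth limits *Il2*, *Il4*, *Il5*, *Il13* and *Csf2*, which had at most 16 counts in any library.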
